A study of Mus musculus with 6 samples.

Results

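The matrix metalloproteinases Mmp2, Mmp8, Mmp9, Mmp12, Mmp13 and Mmp14, their tissue inhibitors Timp1, Timp2 and Timp3, and the membrane protease Adam8 were examined in the livers of mice with and without a guide RNA against Prdx2. These 10 genes were taken by symbol from the 52459 genes of the deposited count table. Adam8 was chosen by its log2 fold change in this contrast, a fall in sgPrdx2 livers, so its values in this contrast are a description with no test, and the tests below concern the other 9 genes. RNA-Seq was available for 6 male C57BL6J mice of the Alb-Cre/Cas9 F1 generation, which received AAV8-U6-sgCtrl (n = 3, mice 5.1, 7.1 and 7.2) or AAV8-U6-sgPrdx2 (n = 3, mice 1.1, 1.3 and 3.2) intravenously at 4 to 5 weeks of age. All 6 mice received the liver carcinogen diethylnitrosamine (DEN) at 100 mg/kg 3 weeks after the vector, started the choline-deficient amino-acid high-fat diet (CDA-HFD) 1 week after that and stayed on it for 6 months, with an age of 8 months in the labels. No chow-fed or DEN-free liver was sequenced, so that both groups are diseased livers and differ by the guide RNA. Alb-Cre restricts the editing to hepatocytes, the study's histology describes areas that the vector did not reach, and RNA came from frozen whole liver, in which the other cell types are also present.

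Matrix metalloproteinases (MMPs) are zinc-dependent proteases that cut collagens, elastin, laminins and other components of the extracellular matrix. Most are secreted as inactive proenzymes and are switched on when plasmin, furin-like convertases or another MMP removes the prodomain, and the TIMPs bind the active site of the mature enzymes and block it. In the fibrotic liver they are made mainly by stellate cells and myofibroblasts (Mmp2, Mmp14, Timp1, Timp2), by macrophages (Mmp12, Mmp13) and by neutrophils (Mmp8, Mmp9), and a high TIMP level is a classical feature of scarring that does not resolve.

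Libraries held between 37462102 and 56865293 counted reads, and no pair of them agreed within sampling noise. The level of Prdx2 itself was 109, 117 and 132 CPM (counts per 1e6 counted reads after TMM normalisation) in the sgCtrl livers and 99.0, 112 and 149 CPM in the livers labelled sgPrdx2, a log2 difference of 0.01 ± 0.18 (SE), so the transcript level does not check the labels and the groups are those the labels name. Of 17032 genes tested with edgeR's quasi-likelihood test, 567 passed an adjusted p of 0.05, which is 3.33% in either direction and 1.54% downwards in sgPrdx2 livers. Leaving out sgCtrl liver 5.1, sgCtrl liver 7.2, sgPrdx2 liver 1.1 or sgPrdx2 liver 1.3 left 0 of all genes past this threshold in edgeR (3114, 3119, 3328 and 3993 genes with an unadjusted p under 0.05), so that the calls below depend on each of these 4 livers. Leaving out sgCtrl liver 7.1 (394 genes called) also ended the calls of Plat, Fosl1, Tgfb1, Col4a1, Vcan, Alb and Apoa1 given below (adjusted p between 0.0596 and 0.100), and leaving out sgPrdx2 liver 3.2 (619 genes called) those of Fosl1, Col4a1, Vcan and Alb (0.0566 to 0.0770). The sgPrdx2 liver 3.2 stood apart by transcript length: genes with under 1 kb of exon lay 0.54 above their own mean on the log2 scale in this liver and genes with over 6 kb lay 0.28 below it, against medians of at most 0.24 in size in the other 5. Scaling by total counts or by 6 housekeeping genes in place of TMM moved the median of all genes from -0.02 to -0.39 and -0.38 on the log2 scale and raised the share of called genes that were lower from 46.2% to 93.7% and 92.9%. With TMM and all livers, 4241 of the 17032 genes had an unadjusted p under 0.05 in edgeR. DESeq2 called 2048 of 15329 genes, 886 of them lower (5.78%). The counts of these kinds given below for lists of genes stand beside these values.

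The genes Mmp13, Mmp12 and Mmp8 lie in 1 cluster on mouse chromosome 9 (GRCm38, GENCODE annotation). Mmp13 occupies chr9:7272514-7283331, the next gene on the same strand is Mmp12 at chr9:7344381-7369499 with 61049 bases and no gene between them, and Mmp8 follows at chr9:7558456-7568485. Adam8 lies on the reverse strand at chr7:139978932-139992562. The 150 bases before the RefSeq start of the 3 genes with the largest falls are shown because AP-1 elements (TGANTCA) are the best-known control elements of collagenase promoters. Capitals mark an AP-1 element, a TATA box (TATAAA) or a PEA3 site (AGGAAG), each searched on both strands, and Mmp12 is shown for the second of its 2 RefSeq starts.
Mmp13, chr9:7272364-7272513, forward strand: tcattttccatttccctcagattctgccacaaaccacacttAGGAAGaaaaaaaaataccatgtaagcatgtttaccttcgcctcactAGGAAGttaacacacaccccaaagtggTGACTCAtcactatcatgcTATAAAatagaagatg
Mmp12, chr9:7347224-7347373, forward strand: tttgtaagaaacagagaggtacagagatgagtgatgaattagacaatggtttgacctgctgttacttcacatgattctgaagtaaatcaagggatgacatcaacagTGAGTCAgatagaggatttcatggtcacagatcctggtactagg
Adam8, chr7:139992563-139992712, reverse strand: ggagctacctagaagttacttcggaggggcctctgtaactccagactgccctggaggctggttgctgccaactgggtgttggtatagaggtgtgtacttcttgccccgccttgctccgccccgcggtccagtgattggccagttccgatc
The AP-1 element of Mmp13 reads TGACTCA at -35 to -29 from the start, beside a TATA box at -16 to -11 and PEA3 sites beginning at -109 and -62. The AP-1 element of Mmp12 reads TGAGTCA at -44 to -38. In the RefSeq windows from 250 bases before to 50 bases after each start, found for 8 of the 10 genes, no AP-1 element was present in Adam8, Mmp8, Mmp14, Timp1, Timp2, Timp3 or the other Mmp12 start. Over all 32851 promoter windows, 7.8% held an AP-1 element, 35.4% a PEA3 site and 13.6% the TATA box letters. A match is a string of letters and was not tested as a binding site.

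Compared per kilobase of exon, the levels of the 10 genes in sgCtrl livers had the order Mmp12, Timp2, Mmp2, Timp1, Mmp14, Timp3, Adam8, Mmp13, Mmp9 and Mmp8, and the order of the means was the same in sgPrdx2 livers. Mmp12 led with 83.8 ± 13.5 CPM per kb (SD, n = 3) in sgCtrl livers and 36.0 ± 6.93 in sgPrdx2 livers. Timp2 followed at 40.0 ± 5.46 and 29.4 ± 1.67 CPM per kb. The sgCtrl means of Mmp2 (29.5 ± 2.38), Timp1 (25.6 ± 2.46), Mmp14 (21.2 ± 0.429) and Timp3 (20.8 ± 5.85) came next. Their ranges of 1 SD overlapped between Mmp2 and Timp1, between Timp1 and Timp3 and between Mmp14 and Timp3. Adam8 stood at 15.8 ± 2.07 CPM per kb, with a range of 1 SD that overlapped that of Timp3, and Mmp13 at 1.99 ± 0.255. Mmp9 (0.449 ± 0.174) and Mmp8 (0.431 ± 0.103) were at the bottom and not apart from each other in sgCtrl livers.

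All 10 genes were expressed above the filter on low counts, and the mean of each was lower in sgPrdx2 than in sgCtrl livers under TMM. In 7 of the 9 genes other than Adam8 the groups did not overlap, all in the downward direction, against 17.5% of all tested genes that did not overlap downwards and 34.2% in either direction. Of the 9 genes tested, 2 fell past the threshold (Mmp12 and Mmp13) and none rose, against the 1.54% of all genes called lower. Their median log2 fold change was -0.45, beside -0.02 over all tested genes. Under total-count scaling 8 of the 9 were called lower, where 17.9% of all genes were, and DESeq2 called 4 lower, with Timp2 and Timp3 added to the 2, where it called 5.78% of all genes lower.

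**Figure D1:**
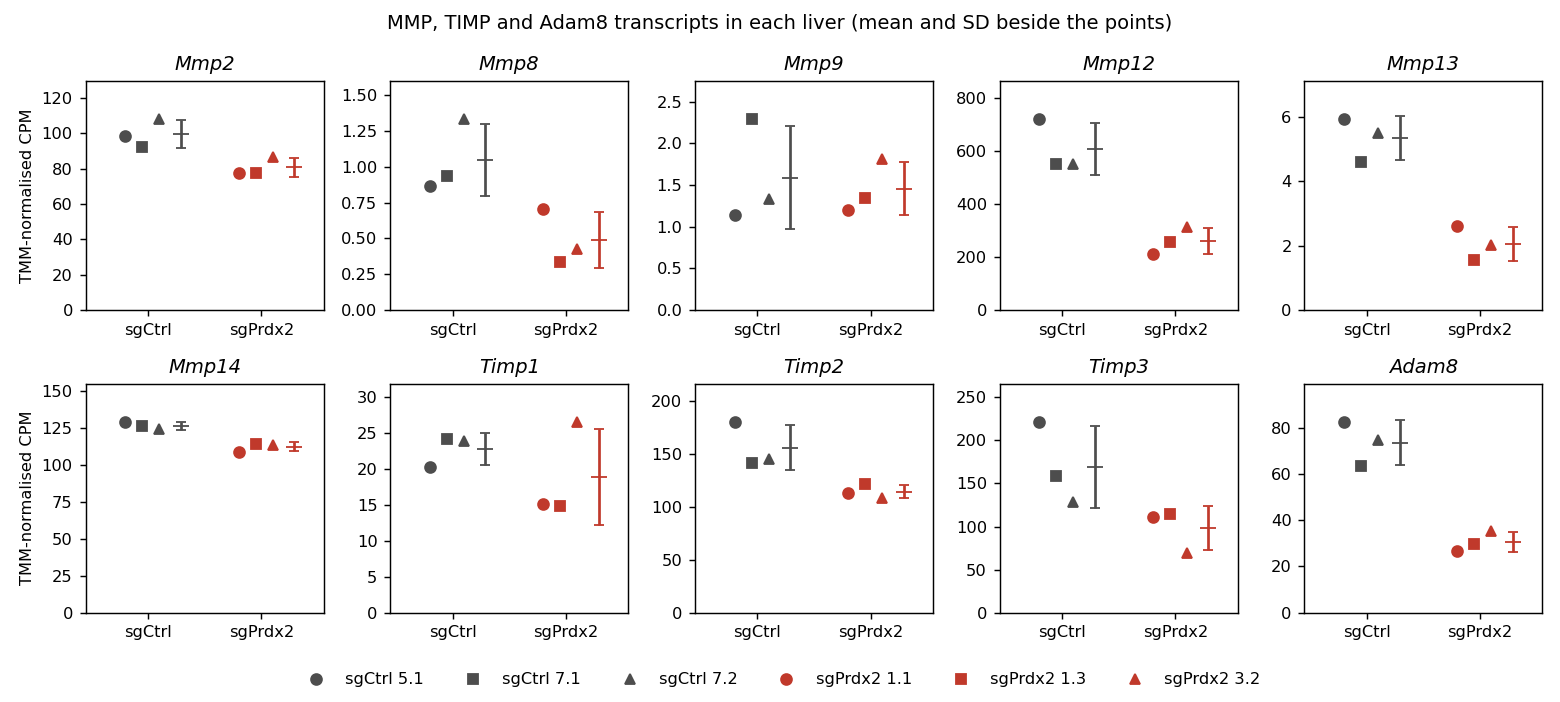
TMM-normalised CPM (vertical axes, each from 0) of the 10 genes in the 3 sgCtrl (grey) and 3 sgPrdx2 (red) livers; each symbol is a liver and the bars beside them are the mean and SD. Mmp12, Mmp13 and Adam8 stand apart between the groups by the widest margins, while Mmp9 and Timp1 overlap.

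Mmp12, the macrophage elastase, and Mmp13, the main interstitial collagenase of rodents, were the 2 members that fell. Mmp12 was at 720, 549 and 551 CPM in sgCtrl livers and at 212, 257 and 312 CPM in sgPrdx2 livers. The highest sgPrdx2 liver was well below the lowest sgCtrl liver. The log2 fold change was -1.22 ± 0.20 (SE, adjusted p = 0.0358), a ratio of 0.429. Mmp13 was far less abundant, with 5.92, 4.58 and 5.50 CPM against 2.60, 1.55 and 2.03 CPM, again without overlap. Its log2 fold change was -1.37 ± 0.23 (adjusted p = 0.0384), a ratio of 0.386, and it rested on 206 to 289 reads in each sgCtrl liver and 66 to 114 in each sgPrdx2 liver. With a correction for exon length and GC content in each library, Mmp12 was at -1.05 with an adjusted p of 0.0509 and was no longer called, while Mmp13 was. Leaving out any of the 4 livers named above put both genes above the threshold, with adjusted p between 0.0788 and 0.144, and changed neither direction. The antisense gene Mmp1b overlaps Mmp12 but had 0 counts in all 6 livers, where 3 counts would be 0.0555 to 0.0921 CPM (counting error only), and 2.53% of the 50-base stretches of Mmp12 transcripts also occur in other genes.

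Adam8, a membrane-anchored disintegrin and metalloproteinase of myeloid cells that cuts adhesion molecules and receptors at the cell surface, was at 82.4, 63.3 and 74.5 CPM in sgCtrl livers. In sgPrdx2 livers it was at 26.8, 29.8 and 35.2 CPM. The lowest sgCtrl liver was at 63.3 CPM and the highest sgPrdx2 liver at 35.2 CPM. The ratio of the groups was 0.417, a log2 difference of -1.26, which ranked 171 from the bottom among 17032 genes. This difference is what chose the gene and is given without a test. Over the 14 alternatives it ranged from -1.65 with housekeeping scaling to -1.17 without sgCtrl liver 5.1.

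The gelatinase Mmp2, which cuts denatured collagen and basement membrane, was at 98.5, 92.0 and 108 CPM in sgCtrl livers and 77.7, 77.7 and 86.9 CPM in sgPrdx2 livers. The groups did not overlap, but the log2 fold change of -0.30 ± 0.13 did not pass (adjusted p = 0.196). Mmp14, the membrane-type MMP that activates proMmp2 at the cell surface, was at 129, 126 and 124 CPM against 109, 114 and 113 CPM. Its log2 fold change of -0.17 ± 0.12 (adjusted p = 0.394) was the second smallest of the 10, although the 2 sets of livers were again separate. The 95% confidence interval for Mmp14 ran from -0.44 to 0.10, so that a fall as large as that of Mmp12 lies outside it. Mmp2 passed the threshold with total counts (-0.68) and with housekeeping scaling (-0.67), where the median of all genes lay at -0.39 and -0.38, and Mmp14 with total counts (-0.54).

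The neutrophil collagenase Mmp8 was scarce, with 38, 42 and 70 reads in sgCtrl livers and 31, 18 and 14 reads in sgPrdx2 livers. In CPM these were 0.868, 0.934 and 1.33 against 0.706, 0.333 and 0.430, with no overlap. The log2 fold change of -1.10 ± 0.35 (adjusted p = 0.117) did not pass, and its 95% confidence interval from -1.92 to -0.28 includes a change as large as those of Mmp12 and Mmp13. Mmp9, the gelatinase of neutrophils and macrophages, was at 1.14, 2.29 and 1.33 CPM against 1.21, 1.35 and 1.81 CPM. These values overlapped throughout, the log2 fold change was -0.13 ± 0.32 (adjusted p = 0.820), and the direction turned to 0.23 when sgCtrl liver 7.1 was left out. The 95% confidence interval of Mmp9 ran from -0.87 to 0.61.

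**Figure D2:**
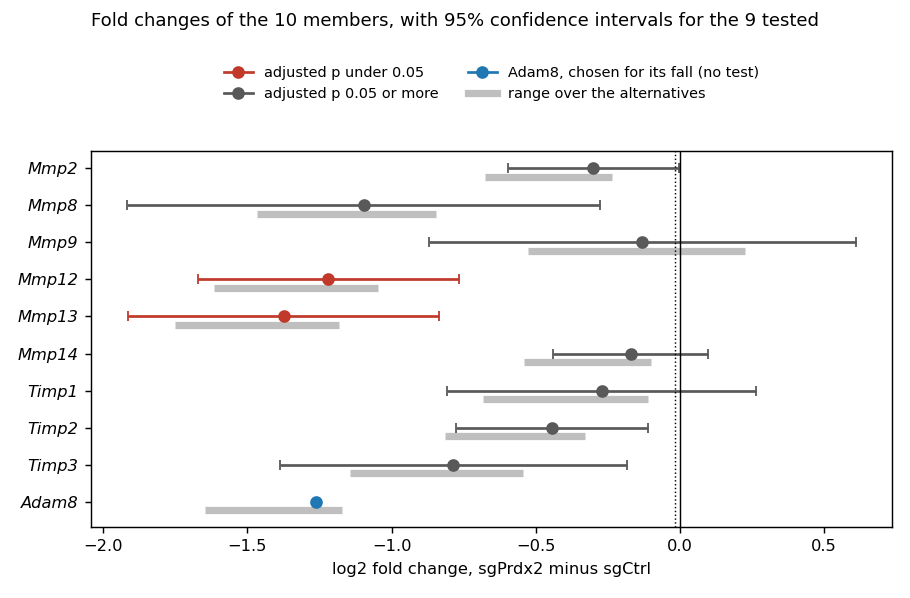
Log2 fold change (horizontal axis, sgPrdx2 minus sgCtrl) of the 10 genes with 95% confidence intervals for the 9 tested; grey bars are the range over the alternative analyses and the dotted line is the median of all tested genes (-0.02). Mmp12 and Mmp13 are the 2 tested genes past an adjusted p of 0.05, and the grey bar of Mmp9 alone crosses 0.

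None of the 3 inhibitors passed the test in edgeR, although Timp2 and Timp3 had an unadjusted p under 0.05 and were called by DESeq2. Over all genes, 4241 of 17032 had such an unadjusted p, and DESeq2 called 5.78% lower. Timp2, which also takes part in the activation of proMmp2 by Mmp14, was at 180, 142 and 146 CPM in sgCtrl livers and 113, 122 and 109 CPM in sgPrdx2 livers. The groups did not overlap, and the log2 fold change was -0.45 ± 0.14 (adjusted p = 0.117 in edgeR and 0.0487 in DESeq2). Timp3, the inhibitor that binds to the matrix and also blocks ADAM proteases, was at 221, 158 and 128 CPM against 111, 115 and 69.0 CPM. Its log2 fold change of -0.79 ± 0.26 did not pass either (adjusted p = 0.123 in edgeR and 0.0325 in DESeq2). Timp3 overlaps the antisense gene Syn3, which shares most of the 21.4% of 50-base stretches that Timp3 has in common with other genes, and strandedness of the counting is not stated. The counts of Syn3 were 15 to 43 per liver.

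Timp1, the inducible inhibitor of fibrotic and inflamed tissue, behaved differently in 1 liver. It was at 20.2, 24.1 and 23.9 CPM in sgCtrl livers and at 15.2, 14.9 and 26.5 CPM in sgPrdx2 livers, so that sgPrdx2 liver 3.2 had the highest value of all 6 and livers 1.1 and 1.3 the lowest. The log2 fold change was -0.27 ± 0.23 (adjusted p = 0.493). Without sgPrdx2 liver 3.2 it was -0.59 (adjusted p = 0.0467), and with the correction for exon length and GC content it was -0.60 (adjusted p = 0.0454). Timp1 has 0.888 kb of exon, in the class under 1 kb whose median lay high in that liver. Timp3, with 8.14 kb, was lowest there and was at -0.66 after the correction (adjusted p = 0.102). Whether exon length has a part in these values was not tested.

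Summed per kilobase of exon, the 6 MMP genes reached 153, 127 and 132 CPM per kb in sgCtrl livers and 72.2, 78.9 and 89.4 in sgPrdx2 livers. The 3 TIMP genes summed to 96.3, 83.0 and 80.0 CPM per kb against 59.7, 62.1 and 66.3. Both sums were lower in every sgPrdx2 liver than in any sgCtrl liver. The ratio of these 2 sums was 1.59, 1.53 and 1.65 in sgCtrl livers and 1.21, 1.27 and 1.35 in sgPrdx2 livers, a log2 ratio of 0.67 ± 0.05 (SD, n = 3) against 0.35 ± 0.08. The MMP sum turned on Mmp12, which made up 60.8 ± 3.71% of it in sgCtrl and 44.6 ± 3.86% in sgPrdx2 livers. Without Mmp12 the log2 ratio was -0.69 ± 0.16 in sgCtrl and -0.50 ± 0.02 in sgPrdx2 livers. The means then differed in the opposite direction, but the ranges of 1 SD overlapped. The MMP sum holds the 6 members only. Mmp7, which is outside it, was at 87.8 ± 67.3 CPM per kb in sgCtrl and 24.1 ± 13.8 in sgPrdx2 livers. Mmp15 (17.9 ± 3.15 against 22.3 ± 2.27) and Mmp19 (13.6 ± 2.28 against 17.9 ± 2.39) are also outside it. A ratio over all MMP genes was not computed. These are sums of transcripts per length and do not measure protein or enzyme activity.

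**Figure D3:**
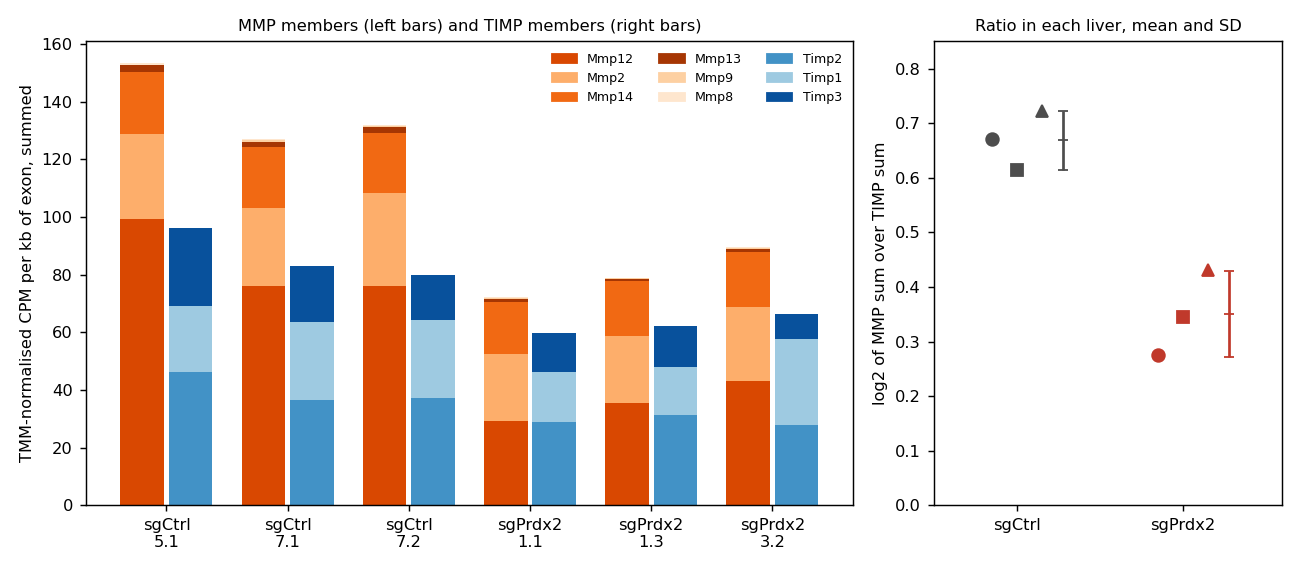
Left, summed CPM per kb of exon of the 6 MMP genes (orange) and the 3 TIMP genes (blue) in each liver; right, the log2 ratio of the 2 sums with the mean and SD of each group. Mmp12 makes up most of the orange bars in sgCtrl livers (60.8%) and less in sgPrdx2 livers (44.6%), and the ratio is lower in all 3 sgPrdx2 livers.

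The summed markers of macrophages and of stellate cells and myofibroblasts were lower in every sgPrdx2 liver than in any sgCtrl liver. The summed neutrophil markers overlapped between the groups. In bulk liver, fewer cells of a type and less RNA per cell cannot be told apart. The summed level of 10 macrophage markers was 3915 to 4478 CPM in sgCtrl and 2562 to 3448 CPM in sgPrdx2 livers. All 10 had a negative log2 fold change (median -0.43) and 2 fell past the threshold (against 1.54% of all tested genes). One of them was Gpnmb, a glycoprotein of lipid-laden macrophages, at -1.08 ± 0.18 (adjusted p = 0.0373), while Lyz2, the lysozyme of myeloid cells, was at -0.33 ± 0.20 (adjusted p = 0.346). As a percentage of the macrophage sum, Mmp12 was 16.1, 14.0 and 12.4 in sgCtrl and 8.28, 9.54 and 9.06 in sgPrdx2 livers. Adam8 was 1.84, 1.62 and 1.68 against 1.04, 1.11 and 1.02, and Mmp13 was 0.132, 0.117 and 0.124 against 0.101, 0.0576 and 0.0588. All 3 genes were thus lower relative to the macrophage sum as well, with log2 ratios of the group means of -0.66, -0.70 and -0.78. Lyz2 was the largest part of the sum, with means of 2012 CPM in sgCtrl and 1602 CPM in sgPrdx2 livers. The fall of Gpnmb (-1.08) was nearer to those of Mmp12 (-1.22), Adam8 (-1.26) and Mmp13 (-1.37), and it was the largest among the 10 markers. Every other marker lay between the -0.82 of Mpeg1 and the -0.02 of Timd4. Cd68 (-0.69) and Trem2 (-0.40) overlapped between the groups. Ratios to single markers were not computed. Mmp2 and Mmp14 were higher relative to the same sum, at 2.33 ± 0.118% against 2.81 ± 0.263% and 2.97 ± 0.225% against 3.93 ± 0.552%.

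The 8 stellate cell and myofibroblast markers summed to 1050 to 1319 CPM in sgCtrl and 813 to 934 CPM in sgPrdx2 livers, and none of them passed in edgeR (4 with an unadjusted p under 0.05, and 2 called by DESeq2). Over all genes, 4241 of 17032 had such an unadjusted p, and DESeq2 called 5.78% lower. The 2 most abundant stellate markers, the proteoglycans Dcn and Lum, were at -0.47 ± 0.17 (adjusted p = 0.149) and -0.42 ± 0.14 (adjusted p = 0.131). The 2 called by DESeq2 were Acta2 and Tagln, both lower without overlap. In edgeR they were at -1.49 ± 0.35 (adjusted p = 0.0584) and -0.77 ± 0.22 (adjusted p = 0.0912). Of the 8 markers 6 had a negative sign, while Reln (0.15) and Des (0.03) were positive. Relative to the sum of these markers Mmp2 overlapped between the groups, at 8.69 ± 1.44% in sgCtrl and 9.30 ± 1.24% in sgPrdx2 livers, and so did Timp1. Mmp14 was higher in every sgPrdx2 liver, at 12.9 ± 0.934% against 11.0 ± 1.07%, and Mmp12, Mmp13 and Adam8 were lower relative to this sum without overlap, with log2 ratios of the group means of -0.80, -0.96 and -0.85. The 10 neutrophil markers summed to only 23.1 to 30.8 CPM against 20.1 to 23.9 CPM. Of these markers, Ly6g, Camp, Mpo and Ngp stayed at or under 0.311 CPM in every liver. Csf3r ranged from 11.2 to 16.8 CPM, S100a9 from 3.27 to 6.47 CPM and S100a8 from 2.95 to 5.65 CPM. Of the 6 neutrophil markers tested in edgeR none was called, 3 had an unadjusted p under 0.05 (4241 of all 17032 genes) and 5 had a negative sign. Csf3r was at -0.42 ± 0.13 (adjusted p = 0.107) and S100a9 at -0.13 ± 0.28 (adjusted p = 0.794). Ltf, from 1 to 17 reads per liver, was at -1.68 ± 0.45 (adjusted p = 0.0788). Cxcr2 was at -0.98 ± 0.39 (adjusted p = 0.176), and Retnlg was positive at 0.11 ± 0.46. Of the 7 hepatocyte markers 4 were called higher (against 1.79% of all tested genes). Among them were Alb at 0.97 ± 0.20 (adjusted p = 0.0472) and Apoa1 at 1.15 ± 0.23 (adjusted p = 0.0466). The sum of the 7 markers was 76460 to 81929 CPM in sgCtrl and 131044 to 176363 CPM in sgPrdx2 livers. The Alb call was lost with housekeeping scaling (adjusted p = 0.0714) and with at least 10 counts required in every liver (adjusted p = 0.0571). Among 7 endothelial markers 6 had a negative sign and the median was -0.39. In edgeR 1 was called lower (against 1.54% of all tested genes), Pecam1 at -0.77 ± 0.15 (adjusted p = 0.0423). DESeq2 called 2 lower (5.78% of all genes), Pecam1 and Lyve1, the latter at -1.23 ± 0.30 in edgeR (adjusted p = 0.0639). The 2 most abundant, Clec4g and Stab2, were at -0.13 ± 0.14 and 0.27 ± 0.24, and the sign of Stab2 turned under total-count and housekeeping scaling. None of the 6 cholangiocyte markers was called in edgeR, with Spp1, also made by macrophages, at -0.46 ± 0.15 (adjusted p = 0.117) and Epcam at -0.37 ± 0.12 (adjusted p = 0.123). The part of cell composition in the member genes was not tested beyond these ratios.

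The likeness of profiles was measured as the root mean square difference between centred log2(CPM + 0.5) values over the 6 livers, among 14122 other genes that averaged 1 CPM or more. The gene closest to Adam8 was Mmp12, with a difference of 0.094 beside a median of 0.667 over all genes compared. Serpinb9b, a serine protease inhibitor, followed at 0.104, then Procr, the protein C receptor, at 0.104, the myeloid receptor Cd300lb at 0.120 and the urokinase receptor Plaur at 0.128. For Mmp12 the closest genes were Serpinb9b (0.0855), Adam8 (0.0936), Plaur (0.107), Procr (0.107) and the diamine oxidase Aoc1 (0.110). Serpinb9b, Procr and Plaur were in both lists of 5. The profile of Timp1 was closest to those of Tubb6 (0.0901), a tubulin, Jpt1 (0.107), Tacc3 (0.109) and Pkmyt1 (0.117), the latter pair with roles in mitosis, and Lyz2 (0.119). In all 5 of these genes, as in Timp1, sgPrdx2 liver 3.2 lay above the other 2 sgPrdx2 livers. These differences are a description over 6 livers that share the contrast between the groups.

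**Figure D4:**
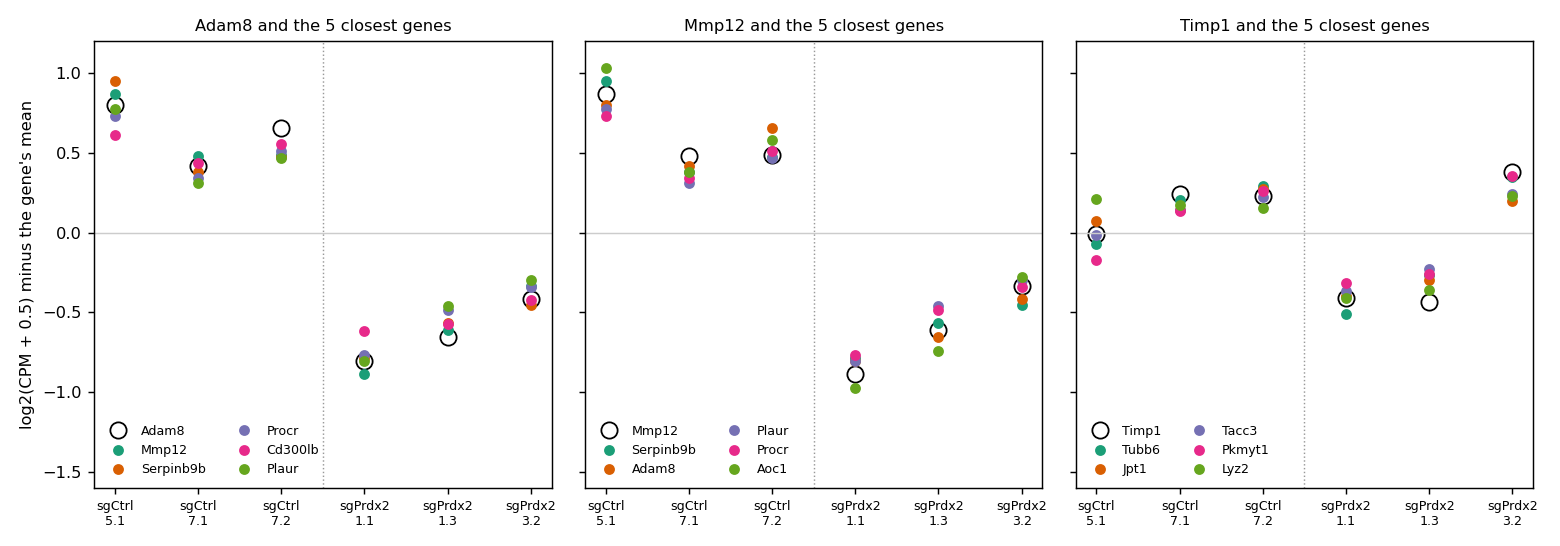
Centred log2(CPM + 0.5) (vertical axis) in each liver for Adam8, Mmp12 and Timp1 (open circles) and the 5 closest genes of each (filled circles). The Adam8 and Mmp12 panels separate the groups, with sgPrdx2 livers all below 0, whereas in the Timp1 panel sgPrdx2 liver 3.2 lies above 0 with all its neighbours.

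Among the other MMP genes none was called in edgeR, either up or down (12 of 17 tested, 4 with an unadjusted p under 0.05 and none called by DESeq2), with a median log2 fold change of -0.48. Over all genes, 4241 of 17032 had such an unadjusted p. Of the 12 other MMP genes tested, 8 had a negative sign. The smallest p belonged to Mmp10, a stromelysin, at -1.32 ± 0.40 (adjusted p = 0.101) from 4 to 23 reads per liver. Mmp7, the matrilysin of ductular and tumor epithelium, was at 169, 25.4 and 87.1 CPM in sgCtrl and 13.9, 21.3 and 42.2 CPM in sgPrdx2 livers. Its groups overlapped, and the fold change of -1.86 ± 0.65 did not pass (adjusted p = 0.137). Mmp19 was the exception in direction among these 3, at 0.40 ± 0.17 (adjusted p = 0.181). In the whole list Mmp11 (0.20), Mmp15 (0.32) and Mmp23 (0.17) were positive as well. The interstitial collagenase genes Mmp1a and Mmp1b had 0 counts in every liver. Of the other inhibitors, the plasma protease trap Pzp was at 0.66 ± 0.17 (adjusted p = 0.0740 in edgeR, called higher by DESeq2) and the membrane-bound MMP inhibitor Reck at -0.56 ± 0.32 (adjusted p = 0.311).

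In the ADAM family outside Adam8, 0 of 11 tested genes were called in edgeR (3 with an unadjusted p under 0.05), with a median of -0.30. Over all genes, 4241 of 17032 had such an unadjusted p, and DESeq2 called 2048 of 15329, with 5.78% lower. Adam10 and Adam17, the main sheddases of cell-surface ligands, were at -0.48 ± 0.12 (adjusted p = 0.0638) and -0.60 ± 0.16 (adjusted p = 0.0813) and were the 2 that DESeq2 called, and Adam15 was at -0.46 ± 0.16 (adjusted p = 0.132). In the secreted ADAMTS family 0 of 13 were called in edgeR (5 with an unadjusted p under 0.05, and 3 lower and 1 higher in DESeq2). Adamts7, which cuts cartilage oligomeric matrix protein, was at 0.86 ± 0.22 (adjusted p = 0.0721), Adamts2, the procollagen N-proteinase, at -0.41 ± 0.12 (adjusted p = 0.0978), and the aggrecanase Adamts4 at -1.35 ± 0.40 (adjusted p = 0.0997).

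Of 12 tested genes for plasmin generation and proMMP activation, 3 were called lower and none higher (1.54% and 1.79% of all tested genes), with a list median of 0.15. The urokinase Plau fell from 29.7, 28.1 and 27.5 CPM to 13.5, 13.9 and 8.57 CPM, a log2 fold change of -1.24 ± 0.19 (adjusted p = 0.0358). Its receptor Plaur fell by 1.07 ± 0.19 on the log2 scale (adjusted p = 0.0394), from 26.4, 18.9 and 21.2 CPM to 8.48, 10.9 and 12.3 CPM. The tissue activator Plat fell by 0.93 ± 0.17 (adjusted p = 0.0399), from 33.7, 36.4 and 38.0 CPM to 19.5, 22.5 and 14.7 CPM. None of these groups of livers overlapped. DESeq2 called 7 genes of this list, 4 lower and 3 higher, where it called 2048 of all 15329 genes and 886 of them lower. The 3 higher ones, made by hepatocytes, did not pass in edgeR: the plasmin precursor Plg was at 0.84 ± 0.18 (adjusted p = 0.0504), the plasmin inhibitor Serpinf2 at 0.70 ± 0.19 (adjusted p = 0.0752) and the membrane serine protease Hpn at 0.54 ± 0.16 (adjusted p = 0.0997).

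Of 11 tested AP-1 subunit genes and MMP-inducing cytokines, 2 were called lower and none higher, against 1.54% and 1.79% of all tested genes. In this list 6 genes had a negative sign, and the median was -0.38. The subunit genes Fos (0.31), Fosb (1.12), Jun (0.12), Junb (0.43) and Jund (0.38) had a positive sign and were not called. Fosl2 was at -0.60 and was not called either. Fosl1, the AP-1 subunit Fra-1, was at 0.937, 0.801 and 1.03 CPM in sgCtrl and 0.319, 0.388 and 0.369 CPM in sgPrdx2 livers (-1.35 ± 0.27, adjusted p = 0.0455). Tgfb1 fell by 0.61 ± 0.12 on the log2 scale (adjusted p = 0.0466), and the cytokine Tnf was at -0.88 ± 0.20 (adjusted p = 0.0553). Of 12 matrix genes whose proteins are MMP substrates, 3 were called lower, against 1.54% of all tested genes. Of the 12, 11 had a negative sign and the median was -0.65. Tenascin Tnc fell from 24.0, 30.7 and 24.9 CPM to 13.2, 12.2 and 10.8 CPM (-1.14 ± 0.15, adjusted p = 0.0313). The basement membrane collagen Col4a1 fell by 0.997 ± 0.203 (adjusted p = 0.0466) and the proteoglycan Vcan by 1.06 ± 0.22 (adjusted p = 0.0483). With the length and GC correction Vcan was at -0.82 and no longer called (adjusted p = 0.0825). DESeq2 called 8 of the matrix genes, all lower, where it called 5.78% of all genes lower.

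**Figure D5:**
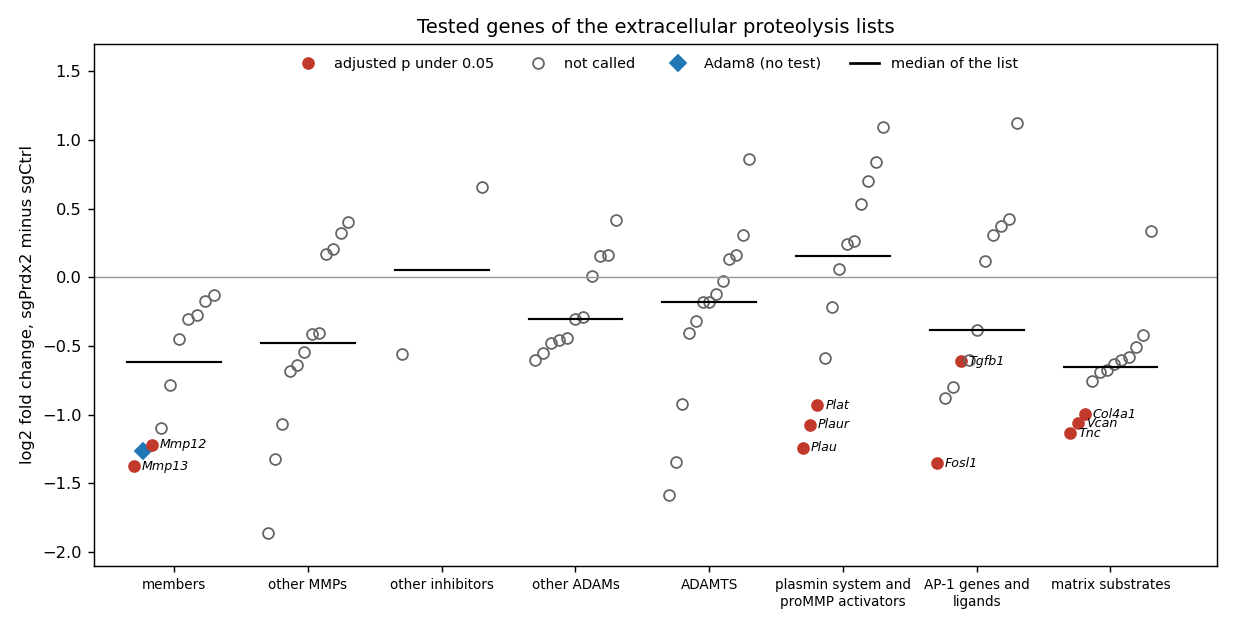
Log2 fold change (vertical axis, sgPrdx2 minus sgCtrl) of every tested gene in the 10 members and 7 related lists; filled red points passed an adjusted p of 0.05, open points did not, the blue diamond is Adam8 and the bars are list medians. The called genes are Mmp12 and Mmp13 among the members, 3 genes of the plasmin system, 2 of the AP-1 list and 3 matrix genes, all lower in sgPrdx2 livers.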

How the data were processed

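RNA-Seq of 6 mouse livers (3 sgCtrl, 3 sgPrdx2) was analysed. The authors deposited raw counts of reads per gene, made, per the submitters' processing notes, with HISAT2, HTSeq and the GRCm38 build (roles, versions, annotation and strandedness are not given in the sources used here). A second table of the authors' DESeq2 comparison was not used. All columns matched a labelled sample. Labels give no batch, and each liver is a separate mouse.

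The test was run with edgeR 4.0.16 under R 4.3.3 (filterByExpr, minimum count 10; TMM; glmQLFit and glmQLFTest; Benjamini-Hochberg over 17032 genes; 16572 with exon length and GC content). Standard errors are the log2 fold change over the square root of F. CPM per kb divides by the merged exon length of the GRCm38 GENCODE annotation, which need not be the authors'. Confidence intervals of fold changes include the spread between livers, and the limit of 3 counts covers counting error only. Sequences are from RefSeq promoter windows on GRCm38.

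The members, gene lists and tests were chosen with earlier results of these data known. Named genes are the 10 members, up to 5 called genes of each list (or the smallest p up to 3), the 2 most abundant of each marker list and the 5 genes closest in profile to Adam8, Mmp12 and Timp1. Ly6g, Camp, Mpo, Ngp, Mmp1a, Mmp1b, Syn3, Plg, Serpinf2, Hpn, Pecam1 and Lyve1 were named after their values were seen. The same holds for Fos, Fosb, Fosl2, Jun, Junb, Jund, Acta2, Tagln, Reln, Des, Ltf, Cxcr2 and Retnlg. It also holds for Mmp11, Mmp15, Mmp23, S100a8, Mpeg1, Timd4, Cd68 and Trem2. Alternatives were RLE, upper quartile, total counts, scaling to 6 housekeeping genes, DESeq2 1.42.0, 2 other filters, adjusted p under 0.01, length and GC correction (mgcv 1.9.3) and leaving out each liver. The fit was tested on simulated data.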

Additional observations from a re-analysis of the deposited data

How the results depend on the processing

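The number of genes called (567 with edgeR, TMM and all livers) was 3247 with total counts, 989 with housekeeping scaling, 1128 without a filter on low counts, 983 with the length and GC correction, 2048 with DESeq2 and 0 at an adjusted p under 0.01. Leaving out 1 liver gave 0 to 619 genes. Of the 9 tested members (2 called), total counts called 8, DESeq2 4 and an adjusted p under 0.01 called 0, and leaving out 1 liver gave 0 to 3. The length and GC correction also called 2, but these were Mmp13 and Timp1. Of the 9 members other than Adam8, 7 or 8 had no overlap, all downwards, under each alternative other than DESeq2, where no overlap was counted, while the share of all tested genes that did so ranged from 11.9% without a filter to 47.5% with total counts. The difference in the log2 MMP to TIMP ratio (-0.32) ranged from -0.36 to -0.28 when 1 liver was left out. It turned to 0.18 without Mmp12, where the ranges of 1 SD of the groups overlapped. Leaving out Mmp12 was an alternative chosen after seeing the data, as were those on the related lists. When 1 liver was left out, Mmp9 ranged from -0.32 to 0.23, turning without sgCtrl liver 7.1, and S100a9 from -0.38 to 0.032, turning without sgCtrl liver 7.1 or 7.2 (0.00076). Stab2 turned to -0.088 with total counts and -0.077 with housekeeping scaling. The cause of these changes was not tested. Mmp8 rested on 14 to 70 reads per liver and Mmp9 on 50 to 103. No paired analysis was possible because the groups share no replicate number.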
